A study of Mus musculus with 11 samples.

Results

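The genes of this report are 9 genes that mark or regulate the epithelial to mesenchymal transition (EMT), namely Cdh1, Cdh2, Epcam, Vim, Fn1, Snai1, Snai2, Zeb1 and Zeb2. They were chosen by name, with earlier results of these data known. All 9 were found in the bulk table, which lists 48952 genes, and all 9 were among the 14185 genes that passed the filter on low counts. All 9 were also found among the 32285 genes of both single-cell matrices. Snai2 and Zeb2 passed the bulk filter only through the Oct4+ libraries, where they are highest, so that their place among the tested genes is not independent of that difference.

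In an EMT, cells lose the junctions that hold an epithelial sheet together and gain a motile form with more contact to the matrix. Cdh1 encodes E-cadherin, the adhesion protein of epithelial junctions, and Epcam encodes an epithelial adhesion protein of the cell surface. Cdh2 encodes N-cadherin, Vim the intermediate filament vimentin and Fn1 the matrix protein fibronectin, all read as mesenchymal markers. Snai1, Snai2, Zeb1 and Zeb2 encode zinc finger repressors that bind E-box motifs and can repress Cdh1. In the mouse embryo, the passage from primitive endoderm (PrE) to parietal endoderm is a known EMT. Embryonic stem cells and the early epiblast (Epi) express Cdh1.

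The data come from naive extra-embryonic endoderm (nEnd), a mouse stem cell culture that models the PrE and is expanded on mouse embryonic fibroblast feeders in the defined medium RACL. An untreated nEnd line with an OCT4-mCherry reporter was stained for the receptor PDGFRA and sorted by flow cytometry. The sort gave cells with PDGFRA only (Pdgfra+), with PDGFRA and the reporter (DP) and with the reporter only (Oct4+), with 3 bulk RNA-seq libraries of each. The other line, Oct4LOF, allows deletion of Oct4 (Pou5f1) by 4-hydroxytamoxifen (4OHT). Its PDGFRA-positive cells were sorted, cultured with (+4OHT) or without 4OHT (−4OHT) and profiled as 1 droplet single-cell library per condition. Both groups of libraries come from 1 line each, and the study names the bulk replicates biological. The labels do not say whether they were separate cultures or sorts, so the p-values measure the spread between these libraries.

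The bulk libraries held 8019631 to 11642571 reads. The sort was visible in the genes that define it. Mean Pou5f1 was 17.5 ± 9.0 CPM (reads scaled to the TMM-adjusted library total) in Pdgfra+, 229 ± 90.3 in DP and 981 ± 142 in Oct4+ (SD, n = 3). Mean Pdgfra was 729 ± 219, 589.6 ± 153 and 7.43 ± 4.07 CPM in the same order. The summed level of 8 fibroblast markers was 1.465 to 13.05 CPM in Pdgfra+ and 3.37 to 6.49 CPM in DP, against 151, 21.2 and 8.31 CPM in Oct4+ replicates 1, 2 and 3. Oct4+ replicate 1 stood apart with 881 reads of the collagen gene Col1a1, against 53 and 24 in the other Oct4+ libraries. All 8 markers had reads in Oct4+ replicate 1, while Dcn, Lum and Postn were at 0 in replicate 2. Results that rest on this library are given below with and without it.

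E-boxes are the motifs through which SNAI and ZEB proteins act, so the upstream sequence of 2 members with opposite textbook roles but high bulk levels in the same sorted populations is shown. The 250 bases before the RefSeq start of Epcam (GRCm38.p6, chr17:87635729-87635978, plus strand) and of Snai1 (GRCm38.p6, chr2:167537945-167538194, plus strand) read, with E-boxes in capitals:
Epcam: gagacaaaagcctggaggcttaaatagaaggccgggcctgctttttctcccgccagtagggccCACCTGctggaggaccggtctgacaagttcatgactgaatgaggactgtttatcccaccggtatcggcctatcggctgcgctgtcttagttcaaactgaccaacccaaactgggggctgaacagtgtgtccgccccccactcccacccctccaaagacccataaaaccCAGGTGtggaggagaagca
Snai1: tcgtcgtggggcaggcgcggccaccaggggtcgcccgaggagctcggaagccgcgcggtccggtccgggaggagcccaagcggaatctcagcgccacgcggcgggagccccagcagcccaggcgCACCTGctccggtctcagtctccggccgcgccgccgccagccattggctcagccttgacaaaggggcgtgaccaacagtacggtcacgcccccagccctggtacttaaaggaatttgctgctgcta
CAGGTG and CACCTG, which are each other's reverse complement, were searched, so that both strands were covered. Epcam held 2 matches, 187 and 19 bases before the start, and Snai1 held 1 match, 126 bases before it. Of all 32851 windows of this length in the table, 17.2% held a match. The table held windows for 4 of the 9 members, and neither the Vim window nor any of the 4 Zeb2 windows held a match. Of the 36 other epithelial genes listed for this report, 21 had a window and 13 of these held a match, against 19.4% of all 27025 symbols. A match describes these letters and does not show a binding site.

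Within each sorted population, members spanned several orders of magnitude. Levels between genes are compared as CPM per kilobase of exon (mean ± SD, n = 3). In Pdgfra+ cells the order was Epcam (215 ± 22.3), Cdh1 (154 ± 21.0), Snai1 (55.3 ± 28.6), Vim (21.3 ± 2.83), Fn1 (6.56 ± 4.56), Cdh2 (2.01 ± 1.58), Zeb1 (0.0828 ± 0.0554), Zeb2 (0.0215 ± 0.0274) and Snai2 (0.0164 ± 0.0285). The libraries of Fn1 and Cdh2, of Zeb1 and Zeb2 and of Zeb2 and Snai2 overlapped, so that these neighbours were not separated. The most abundant of the 4 repressors was therefore Snai1, and it stood directly below Epcam and Cdh1. In DP cells Cdh1 (184 ± 17.4) and Epcam (174 ± 26.5) overlapped, followed by Snai1 (41.1 ± 15.8). In Oct4+ cells Cdh1 remained first (135 ± 18.5 CPM per kilobase), but Fn1 stood next (74.0 ± 22.8) and overlapped with Epcam (47.6 ± 20.9). Snai1 was at 14.9 ± 2.76 in Oct4+ cells, and Zeb1 at 1.98 ± 0.594.

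**Figure D1:**
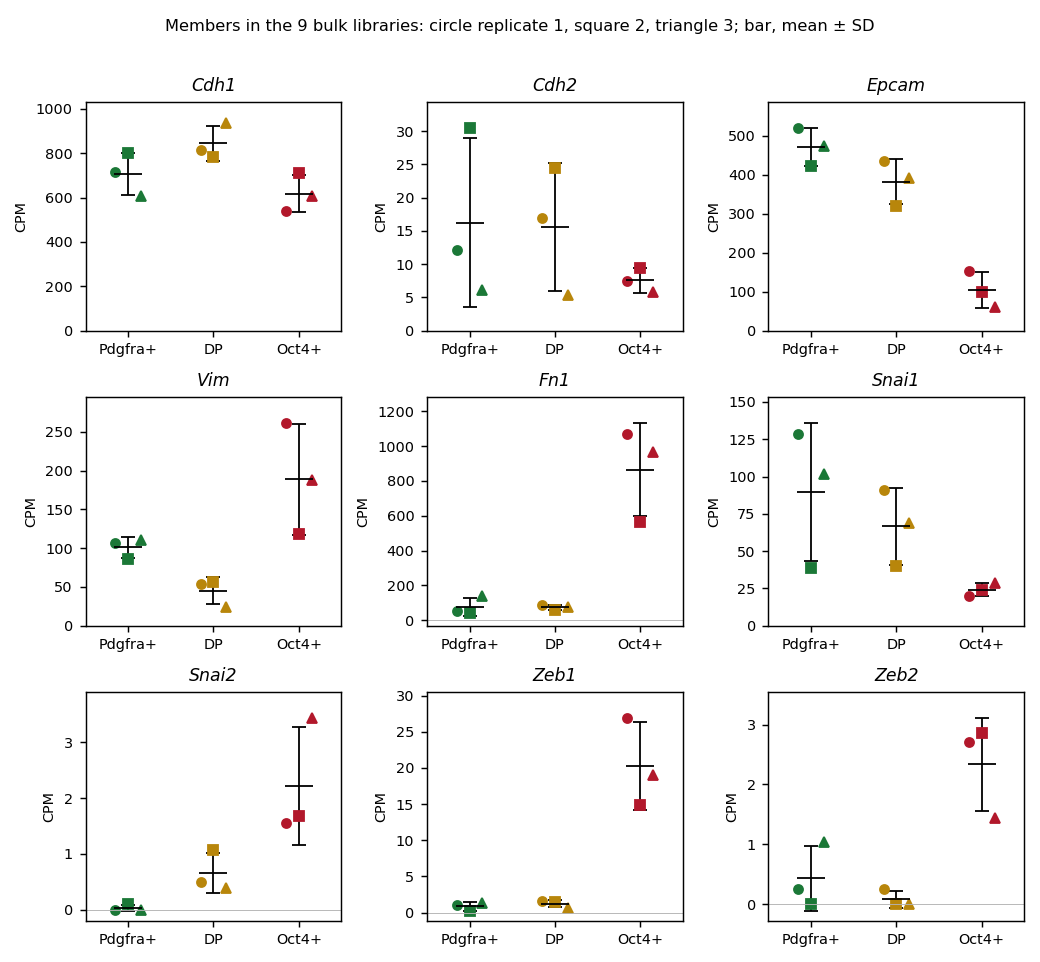
CPM of each member in the 9 bulk libraries, with the sorted population on the x axis, 1 symbol per replicate number and a bar for the mean ± SD. Cdh1 stays between 540 and 933 CPM in all libraries, Epcam and Snai1 are lowest in Oct4+, and Fn1 and Zeb1 lie far above the other libraries in all 3 Oct4+ libraries.

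The comparison of Oct4+ with Pdgfra+ cells asks how the EMT genes differ between the Epi-like and the endoderm ends of the culture. Oct4+ cells held more Fn1, Zeb1, Snai2, Zeb2 and Vim, and less Epcam and Snai1, while Cdh1 and Cdh2 did not pass the test. By edgeR's quasi-likelihood test, 5 members were higher and 2 lower at a Benjamini-Hochberg adjusted p below 0.05. That is 7 of 9 members, where 63.2% of all genes tested were called in this comparison, 31.8% higher and 31.5% lower. Libraries of the 2 groups did not overlap for 7 members, where the share among all genes was 69.3%. With most genes called, these counts are not read as a result about the members. The median log2 difference was 0.90 over the members and 0.01 over all genes.

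Among the epithelial members, Cdh1 was measured at 714, 798 and 607 CPM in Pdgfra+ replicates 1, 2 and 3 and at 540, 708 and 606 CPM in Oct4+. The groups overlapped, and the log2 difference of −0.19 (SE 0.151) had an adjusted p of 0.288. Epcam was at 519.5, 422 and 473.5 CPM in Pdgfra+ and at 153, 99.8 and 61.3 CPM in Oct4+. All Oct4+ libraries lay below all Pdgfra+ libraries, and Epcam fell by 2.17 on the log2 scale (SE 0.285, adjusted p = 0.000118). So E-cadherin and EpCAM transcripts, both epithelial markers, did not move together between these populations.

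Among the mesenchymal markers, Fn1 was at 51.4, 40.6 and 138 CPM in Pdgfra+ and at 1067, 562 and 964 CPM in Oct4+. The groups were far apart, with a log2 difference of 3.50 (SE 0.459, adjusted p = 0.000118). Vim was at 107, 85.9 and 111 CPM in Pdgfra+ and at 261, 118 and 188 CPM in Oct4+. The groups did not overlap, and Vim was higher by 0.90 on the log2 scale (SE 0.33, adjusted p = 0.0353). Oct4+ replicate 1, which held the most fibroblast marker RNA, had the highest Vim and Fn1. Without Pdgfra+ replicate 3, the highest of its group, the Fn1 difference was 4.20. Without Oct4+ replicate 1 it was 3.30 (adjusted p = 0.000596), while the Vim difference was 0.58 with an adjusted p of 0.159. Leaving out any other library of either group except Oct4+ replicate 2 also ended the Vim call. Cdh2 went the other way on average, at 12.2, 30.5 and 6.05 CPM in Pdgfra+ and 7.44, 9.46 and 5.76 CPM in Oct4+. These libraries overlapped (log2 difference −1.10, SE 0.617, adjusted p = 0.142). In bulk samples, fewer cells of a type and less RNA per cell cannot be told apart.

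The repressors split between the populations. Snai1 was at 129, 38.5 and 102 CPM in Pdgfra+ and at 19.8, 23.9 and 28.7 CPM in Oct4+. All Oct4+ values lay below the lowest Pdgfra+ value, and Snai1 fell by 1.90 on the log2 scale (SE 0.424, adjusted p = 0.00297). Zeb1 had 9, 2 and 12 reads in the Pdgfra+ libraries and 347, 151 and 172 reads in the Oct4+ libraries. Its log2 difference was 4.58 (SE 0.552, adjusted p = 6.92e-05), and it was 4.30 without Oct4+ replicate 1 (adjusted p = 0.000406). Snai2 had 0, 1 and 0 reads in Pdgfra+ and 20, 17 and 31 reads in Oct4+, a ratio of pooled reads of 59 with a 95% counting interval of 10.2 to 2360. Zeb2 had 2, 0 and 10 reads in Pdgfra+ and 35, 29 and 13 reads in Oct4+, a ratio of 5.56 (3.01 to 11.2). The fitted difference of Zeb2 was 2.41 (adjusted p = 0.0338), and its call ended without Oct4+ replicate 1 (adjusted p = 0.0806), Oct4+ replicate 2, Pdgfra+ replicate 1 or Pdgfra+ replicate 2. The Zeb2 difference was 1.78 without Pdgfra+ replicate 2 and 4.21 without Pdgfra+ replicate 3. Pdgfra+ replicate 3 held the highest Zeb2, Zeb1 and Fn1 of its group and also the most fibroblast marker RNA of its group, and the part of the latter was not tested.

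**Figure D2:**
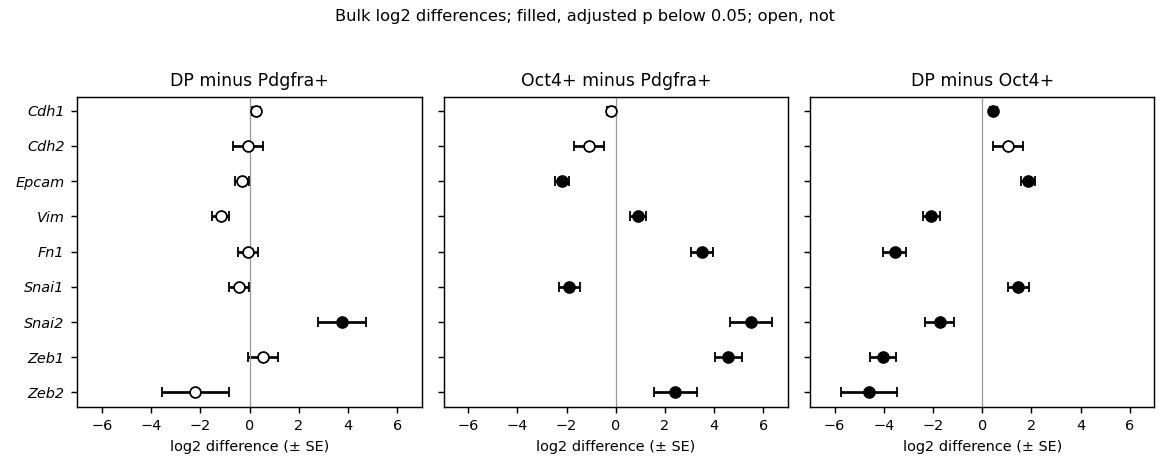
Log2 difference of each member with its SE (x axis) in the 3 bulk comparisons, filled where the adjusted p is below 0.05. Epcam and Snai1 are lower and Fn1, Zeb1 and Snai2 higher in Oct4+ than in Pdgfra+, and only Snai2 is filled between DP and Pdgfra+.

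The comparison of DP with Pdgfra+ cells asks whether endoderm that carries the OCT4 reporter differs from endoderm without it. Only 1 of 9 members, Snai2, was called, where 6.87% of all genes were called, 4.62% higher and 2.26% lower. Libraries did not overlap for 2 members, Snai2 and Vim, where the share among all genes was 34.2%. The median log2 difference was −0.06 over the members and 0.02 over all genes. Snai2 had 4, 9 and 3 reads in DP against 0, 1 and 0 in Pdgfra+, with a fitted difference of 3.77 (SE 0.978, adjusted p = 0.0481). This call rests on 17 reads in all. It ended without any single library of the 2 groups, and with the replicate number as a block, by which the DP and Pdgfra+ libraries are paired, its adjusted p was 0.0621. In the fits of only the 6 DP and Pdgfra+ libraries, Snai2 and Zeb2 did not pass the filter and were not tested. DESeq2 gave Snai2 no adjusted p. Vim was at 54.2, 55.9 and 24.7 CPM in DP, below all 3 Pdgfra+ libraries, with a log2 difference of −1.17 (SE 0.337, adjusted p = 0.0647). With the replicate block in the fit of the 6 DP and Pdgfra+ libraries, Vim fell by 1.21 on the log2 scale (adjusted p = 0.0334), and in the block over 9 libraries its adjusted p was 0.0596. It was also called by DESeq2 (adjusted p = 0.0132).

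No other member was called between DP and Pdgfra+. Cdh1 was at 815, 782.5 and 933 CPM in DP (log2 difference 0.26, SE 0.151, adjusted p = 0.316). Epcam was at 435.5, 320.2 and 392 CPM (difference −0.30, SE 0.273), Snai1 at 90.9, 39.8 and 69.0 CPM (−0.43, SE 0.408) and Fn1 at 87.9, 57.0 and 75.8 CPM (−0.06, SE 0.423). Each overlapped the Pdgfra+ libraries, with adjusted p-values of 0.519, 0.54 and 0.942. Epcam was nevertheless lower in each DP library than in the Pdgfra+ library with the same number. With the replicate block in the edgeR fit of the 6 DP and Pdgfra+ libraries, its difference was −0.29 (adjusted p = 0.0673). For Snai1 it was −0.33 (adjusted p = 0.144). Cdh2 followed the replicate number more than the population. It was at 17.0, 24.4 and 5.36 CPM in DP and 12.2, 30.5 and 6.05 CPM in Pdgfra+, so that replicate 2 was highest and replicate 3 lowest in both. Zeb1 had 13, 12 and 5 reads and Zeb2 had 2, 0 and 0 reads in the DP libraries.

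Between DP and Oct4+ cells, the populations on either side of the loss of PDGFRA, 3 members were higher in DP and 5 lower, which is 8 of 9 where 56.2% of all genes were called, 28.3% higher and 27.9% lower. Libraries did not overlap for 8 members, where the share among all genes was 62.6%. This comparison shares its Oct4+ libraries with the first. Epcam (log2 difference 1.87, SE 0.283, adjusted p = 0.000367) and Snai1 (1.47, SE 0.421, adjusted p = 0.0133) were higher in DP. Cdh1 was also higher, by 0.45 (SE 0.152, adjusted p = 0.0279), with no DP library below 782.5 CPM and no Oct4+ library above 708 CPM. The Cdh1 call ended without Oct4+ replicate 1 (difference 0.37, adjusted p = 0.0802), without Oct4+ replicate 3 and without DP replicate 3. Fn1 (−3.56, SE 0.461), Zeb1 (−4.02, SE 0.534), Vim (−2.07, SE 0.343), Zeb2 (−4.62, SE 1.14) and Snai2 (−1.72, SE 0.582) were lower in DP, with adjusted p-values of 0.000145, 0.000167, 0.000639, 0.00628 and 0.0279. Both DP reads of Zeb2 were in replicate 1, and without that library its fitted difference was −7.47. The Vim difference held without Oct4+ replicate 1 (−1.75, adjusted p = 0.00264). Cdh2 was not called (difference 1.04, SE 0.618, adjusted p = 0.174).

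The balance of the cadherins did not turn in any population. The ratio of Cdh1 to Cdh2 reads was 58.5, 26.2 and 100.2 in Pdgfra+, 48.1, 32.0 and 174 in DP and 72.6, 74.8 and 105 in Oct4+. The 3 groups overlapped in this ratio. Per kilobase of exon, mean Cdh1 stood above mean Cdh2 in all 3 populations, at 154 against 2.01, 184 against 1.93 and 135 against 0.937 CPM per kilobase.

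Other genes of the pathway were read from lists written for this report, with earlier results of these data known. Of 36 other epithelial genes, which cover junctions, keratins and epithelial splicing factors, 22 were lower and 5 higher in Oct4+ than in Pdgfra+, with a median log2 difference of −1.71. Over all genes 31.5% were lower and 31.8% higher, and the median was 0.01. Endoderm markers moved with this list, as 9 of 9 tested parietal markers (median −6.86) and 9 of 10 visceral markers (median −4.46) were lower in Oct4+, and their part was not tested. The largest falls were in Krt19, a keratin, from 415 ± 111 to 8.30 ± 10.2 CPM, and in the tight junction claudins Cldn6, from 751 ± 74.2 to 23.2 ± 25 CPM, and Cldn7, from 191 ± 28.4 to 8.56 ± 5.83 CPM. Cdh3, which encodes P-cadherin, and Cldn4 were higher, by 4.03 (adjusted p = 0.000353) and 2.88 (adjusted p = 7.34e-05) on the log2 scale. Against DP, 24 of these genes were lower and 4 higher in Oct4+, where 28.3% of all genes were lower and 27.9% higher. Between DP and Pdgfra+ none of the 36 was called in the fit without the replicate block, where 6.87% of all genes were. The median difference was −0.06. With the block over the 6 DP and Pdgfra+ libraries, 24 genes of this list and the next together were called, where 20.2% of all genes were.

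Of 36 other mesenchymal and EMT-regulator genes, 29 were tested. In Oct4+ against Pdgfra+, 8 were higher and 15 lower, with a median of −1.18, against the same shares of all genes. Mmp2, a matrix protease, was higher at 17.9 ± 7.19 against 0.482 ± 0.432 CPM, as was Tcf4, an E-box binding factor, at 86.6 ± 24.8 against 17.7 ± 5.54 CPM. The largest falls were in Spock1 and Sparc, which encode matrix proteoglycan and matrix-binding proteins, and in Cdh6, which encodes K-cadherin. Sparc was at 12260 ± 3100 CPM in Pdgfra+ and 237.5 ± 79.7 CPM in Oct4+, and it is also a marker of parietal endoderm. Spock1 was at 458 ± 173 against 4.08 ± 1.27 CPM. Mmp2 is also among the leading genes of fibroblast-like single cells. Without Oct4+ replicate 1 the log2 differences of Mmp2 and Tcf4 were 5.14 (adjusted p = 0.000633) and 2.40 (adjusted p = 0.00095). In DP against Oct4+, 10 mesenchymal genes were higher and 8 lower, where 28.3% of all genes were higher and 27.9% lower. Tcf3 was among the lower ones (log2 difference −0.78, adjusted p = 0.00112). Between DP and Pdgfra+ 2 were called, where 6.87% of all genes were. Both were lower in DP, namely the smooth muscle gene Tagln (−3.24, adjusted p = 0.0202) and the matrix gene Fbln1 (−1.60, adjusted p = 0.0495). With the replicate block, 6 (9 libraries) or 24 (6 libraries) genes of the 2 lists were called in this comparison, against 2, where 8.21% and 20.2% of all genes were called.

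Genes with the pattern most like that of each member over the 9 libraries were found by the root mean square difference of centred log2 CPM among 10878 genes. Epcam lay nearest to Tpi1, a glycolytic enzyme (0.128), and Selenoo (0.166), while the SD of Epcam itself was 1.12. Snai1 lay nearest to Egln1, an oxygen sensor (0.218), and Abca1 (0.239). Cdh1 lay nearest to the proton pump subunits Atp6v1e1 (0.0873) and Atp6v1f (0.108), in a range where Cdh1 itself varied little (SD 0.251). Fn1 lay nearest to Car13 (0.298) and Phf6 (0.348), and Zeb1 to Gm8292 (0.333), a predicted gene whose counts are uncertain, and Gjc1 (0.336). Snai2 lay nearest to Gpat2 (0.309) and Asns (0.355), Vim to Lrp1 (0.332) and Arhgef10 (0.342), Cdh2 to Bspry (0.361) and Slc4a11 (0.415), and Zeb2 to Zcwpw1 (0.447) and Msi2 (0.505). The 9 libraries fall into 3 groups, and the distance does not separate differences between groups from those within them.

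The single-cell libraries resolved the same genes by cell. After a filter of at least 2000 genes and at most 10% mitochondrial UMIs, 5224 of 6896 barcodes in −4OHT and 6220 of 7283 in +4OHT remained, with medians of 18146 and 12725.5 UMIs. The libraries shared 21 barcodes. UMI levels are given as CPM of all UMIs of a class or library (UMI CPM). Pou5f1 was at 40.3 UMI CPM in −4OHT and 2.48 in +4OHT. A 3′ tag checks the deletion only if it lies in the deleted part, which the sources used here do not give. Cells were clustered without the members and without the other EMT genes, and clusters were named from marker lists. Endoderm-like cells numbered 1392 in −4OHT and 5988 in +4OHT, and epiblast-like cells 3691 in −4OHT and 0 in +4OHT, which allows a share of up to 0.0482% of cells. Trophectoderm-like cells numbered 28 and 197, fibroblast-like cells 20 and 31, and 2-cell-like cells 93 and 4. With 1 library per condition there is no test between conditions, and all intervals are 95% and cover counting error only.

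Within the −4OHT library, epiblast-like cells differed from endoderm-like cells by at least 2-fold in 4 of 9 members, where 37.6% of 15161 genes did so. Fn1 was at 258 UMI CPM (254 to 261) in epiblast-like and 46.4 (43.8 to 49.2) in endoderm-like cells, a ratio of 5.55 (5.22 to 5.90). This ratio was 12.3 (11.2 to 13.6) without the predicted doublets of this library and 8.67 (7.63 to 9.90) without the Amn/Cubn cluster. Zeb1 was at 23.8 (22.7 to 25) against 6.12 (5.17 to 7.19), a ratio of 3.89 (3.29 to 4.64), and 7.04 (4.82 to 10.7) without the Amn/Cubn cluster. Snai1 went the other way, at 3.31 (2.91 to 3.75) against 18.6 (16.9 to 20.4), a ratio of 0.178 (0.152 to 0.208). Epcam was at 102 (99.5 to 104) against 267 (261 to 274), a ratio of 0.381 (0.368 to 0.394). The directions of these 4 were those of Oct4+ against Pdgfra+ in bulk, in another line. By UMI CPM, Vim, Cdh2 and Zeb2 went against their bulk direction. The ratio of Cdh2 was 1.68 (1.29 to 2.21), although Cdh2 was not called in bulk.

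The other members differed less between these classes. Cdh1 was at 57.3 UMI CPM (55.6 to 59.1) in epiblast-like and 86.8 (83.1 to 90.6) in endoderm-like cells of −4OHT. Vim was at 115 (113 to 118) and 131 (127 to 136), a ratio of 0.88 (0.844 to 0.916), and 0.481 (0.457 to 0.505) without the Amn/Cubn cluster described below. By the share of cells with a UMI after thinning to 5000 UMIs the order was the reverse, at 37.9% (36.4 to 39.5) of epiblast-like and 33.3% (30.9 to 35.9) of endoderm-like cells, so that the order of Vim depends on the measure. Cdh2 was at 4.72 (4.24 to 5.24) and 2.81 (2.18 to 3.57), Snai2 at 1.29 (1.04 to 1.57) and 0.827 (0.505 to 1.28), and Zeb2 at 1.61 (1.33 to 1.92) and 2.44 (1.86 to 3.15). Zeb2, higher in bulk Oct4+ than in Pdgfra+, was therefore not higher in epiblast-like than in endoderm-like single cells, with a ratio of 0.659 (0.479 to 0.916), or 0.337 (0.232 to 0.5) without the Amn/Cubn cluster. Snai2 had a ratio of 1.56 (0.953 to 2.66), and 5.13 (1.38 to 42.9) without that cluster, where 2 UMIs remained in endoderm-like cells.

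Shares of cells were compared at equal depth. Each cell was thinned to 5000 UMIs, which left out 6 cells in −4OHT and 36 in +4OHT. Fn1 then had a UMI in 69.0% of epiblast-like and 12.1% of endoderm-like cells of −4OHT, against 96.6% and 26.5% before thinning. Zeb1 had one in 10.7% and 2.38% (34.6% and 9.20% before), Snai1 in 1.95% and 8.50% (6.34% and 23.9% before), and Epcam in 35.1% and 65.7% (68.0% and 90.1% before). Cdh1 had a UMI in 22.8% of epiblast-like and 32.5% of endoderm-like cells at this depth. As a measure of free RNA, Col4a1, a basement membrane collagen of endoderm, had a UMI in 8.89% of thinned epiblast-like cells and 99.1% of endoderm-like cells, and Sox17 in 1.14% and 54.1%. Sox17, an endoderm factor, was at 2.28 UMI CPM in epiblast-like and 182 in endoderm-like cells. The median depth before thinning was 19086 UMIs in epiblast-like and 15400.5 in endoderm-like cells. The Snai1 share in epiblast-like cells, 1.95% (1.53 to 2.45), lay between those of Sox17, 1.14% (0.822 to 1.54), and Col4a1, while the ratio of epiblast-like to endoderm-like UMI CPM was 0.178 (0.152 to 0.208) for Snai1, 0.0125 (0.0107 to 0.0146) for Sox17, 0.00772 (0.00734 to 0.00811) for Col4a1 and 0.0135 (0.0113 to 0.016) for Pdgfra.

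Fibroblast-like cells carried the highest levels of most mesenchymal members. Vim was at 2913 UMI CPM (2770 to 3060) in the 20 cells of −4OHT and 1132 (1070 to 1200) in the 31 cells of +4OHT, and Fn1 at 1738 and 847. Zeb2 was at 56.6 and 75.3, Zeb1 at 42.4 and 72.2, Cdh2 at 42.4 and 72.2, and Snai2 at 24.8 and 40.8 UMI CPM. Cdh1, at 33.6 and 29.3, and Epcam, at 69.0 and 93.1, were lowest here among the classes of each library, with intervals that overlap those of some small classes. Snai1, at 12.4 (4.98 to 25.5) and 18.8 (11.2 to 29.8), was below its level in endoderm-like cells of +4OHT. Col1a1 fell from 1425 and 4795 UMI CPM in fibroblast-like cells to 0.289 and 0.61 in endoderm-like and 0.857 in epiblast-like cells. The part of fibroblast RNA in the values of other classes was not tested.

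**Figure D3:**
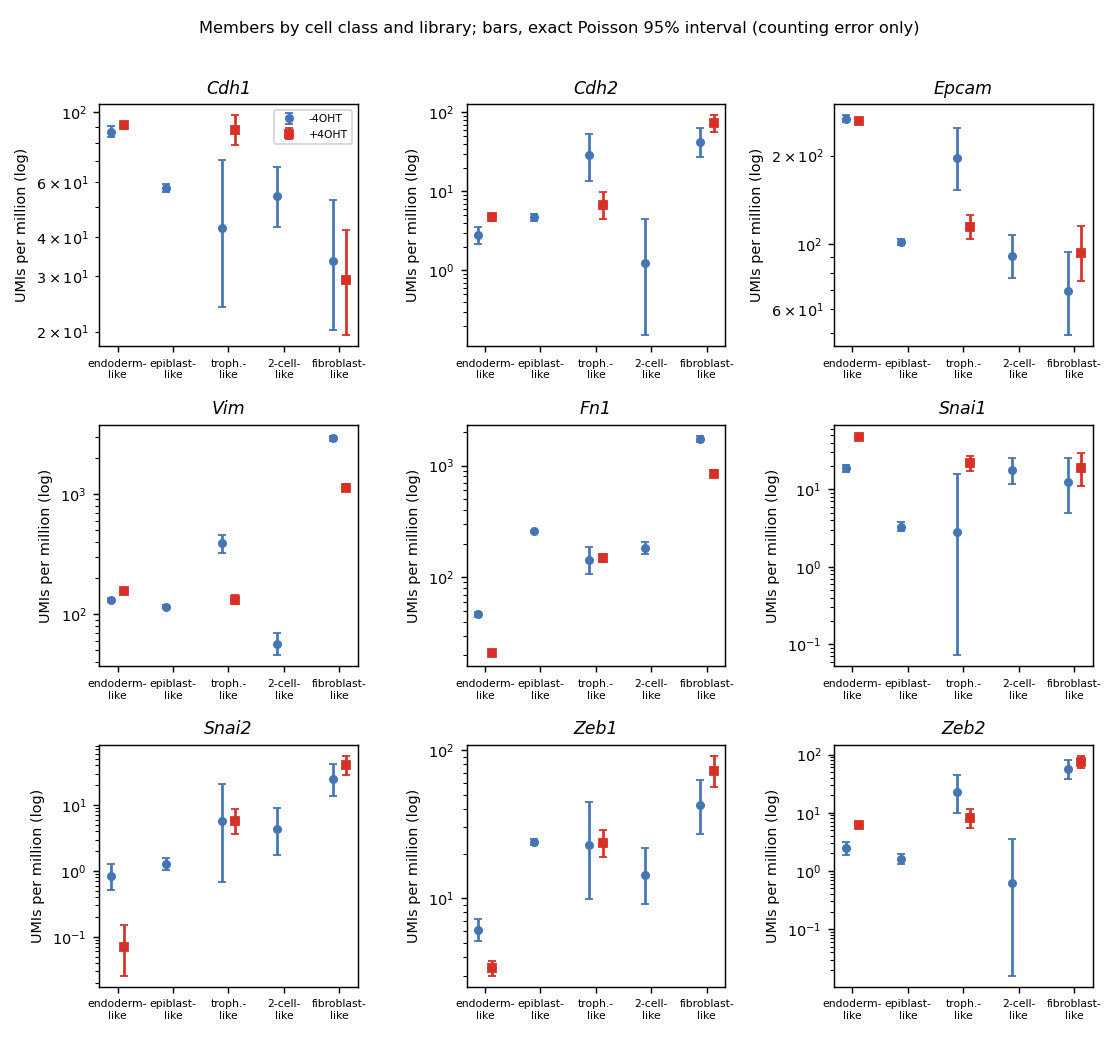
UMI CPM (log y axis) of each member by cell class, circles for −4OHT and squares for +4OHT, with exact Poisson 95% intervals, which cover counting error only. Epcam is highest in endoderm-like cells, Snai1 is highest there in +4OHT, Fn1 and Zeb1 are higher in epiblast-like than endoderm-like cells, and Vim, Fn1, Cdh2, Snai2, Zeb1 and Zeb2 are highest in fibroblast-like cells. The 4 cells of the 2-cell-like class in +4OHT are left out.

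The small classes differed from these in other ways. Trophectoderm-like cells of +4OHT (197 cells) held Zeb1 at 23.6 UMI CPM (19.0 to 29.0), Fn1 at 149.9 (138 to 163) and Snai2 at 5.72 (3.58 to 8.65), all above endoderm-like cells of the same library. Their Cdh1, at 87.8 (78.7 to 97.7), was close to the 90.7 (88.7 to 92.8) of endoderm-like cells, while Epcam was at 114 (104 to 126) against 262. These cells also held Pou5f1 at 19.0, Sox17 at 173, Col4a1 at 1274 and Pdgfra at 52.7 UMI CPM, the last 3 being endoderm markers. The 28 trophectoderm-like cells of −4OHT held these 3 at 2.85, 34.2 and 0 UMI CPM, and their Cdh1 was at 42.7 (23.9 to 70.4) against 86.8 in endoderm-like cells. The part of endoderm RNA in the +4OHT values was not tested. The 93 cells of the 2-cell-like class in −4OHT held Fn1 at 183 (162 to 205) and Snai1 at 17.6 (11.7 to 25.4), and Zeb2 was 1 UMI in all. Their Vim, at 56.5 (45.4 to 69.4), was below that of endoderm-like, epiblast-like and fibroblast-like cells.

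Endoderm-like cells fell into 3 clusters, named here by their leading genes. The Tff1/Clu cluster held 173 cells of −4OHT and 3794 of +4OHT, the Car4/Pitx1 cluster 450 and 2191, and the Amn/Cubn cluster 769 and 3. Different clusters thus hold most of the class in the 2 libraries. The Amn/Cubn cluster had Pou5f1 at 23.3 UMI CPM, and 15.3% of its −4OHT cells (118 of 769) were called doublets by Scrublet, against 0.222% (1 of 450) in the Car4/Pitx1 and 0.578% (1 of 173) in the Tff1/Clu cluster of −4OHT. In −4OHT, Vim was at 77.6 UMI CPM (73.4 to 82.0) in the Amn/Cubn cluster, 217 (205 to 229) in the Car4/Pitx1 cluster and 314 (289 to 340) in the Tff1/Clu cluster. Zeb1 was at 7.47 (6.20 to 8.92), 3.62 (2.27 to 5.48) and 2.64 (0.858 to 6.17), and Fn1 at 54.7 (51.1 to 58.4), 26.0 (22.1 to 30.4) and 41.8 (33.1 to 52.0). Cdh1 varied less, at 92.2, 67.4 and 102.5 UMI CPM.

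Comparing +4OHT with −4OHT asks how the EMT genes of endoderm-like cells differ between the cultures with and without 4OHT. In all endoderm-like cells, 4 of 9 members were at least 2-fold apart, 2 higher in +4OHT and 2 lower. Of the 14639 genes with at least 30 UMIs over both libraries, 22.9% were at least 2-fold apart, 13.7% higher and 9.20% lower. The median ratio over these genes was 1.13. Snai2, among the 2 lower members, fell below that minimum, with 6 UMIs in +4OHT and 20 in −4OHT. The member count and these shares are therefore not on the same basis. Snai1 was at 47.8 UMI CPM (46.3 to 49.3) in +4OHT and 18.6 (16.9 to 20.4) in −4OHT, a ratio of 2.57 (2.33 to 2.84). The ratio was 2.26 (1.69 to 3.10) within the Tff1/Clu cluster and 2.60 (2.11 to 3.24) within the Car4/Pitx1 cluster. Pou5f1 was low in both libraries in these clusters. It was at 1.59 UMI CPM in −4OHT and 2.42 in +4OHT in the Tff1/Clu cluster, and at 3.45 and 0.999 in the Car4/Pitx1 cluster. Ratios within these clusters therefore compare cells that held little Pou5f1 RNA in either library. Zeb2 was at 6.14 against 2.44, a ratio of 2.52 (1.92 to 3.35), but 1.29 (0.927 to 1.84) without the Amn/Cubn cluster. Without that cluster 2 members, Snai1 and Cdh2, were at least 2-fold higher and 1, Snai2, at least 2-fold lower. The Cdh2 ratio within the Tff1/Clu cluster was 1.16 (0.639 to 2.35). Of genes with at least 30 UMIs, 9.37% were at least 2-fold apart in either direction. Snai2 then had 6 UMIs in +4OHT and 2 in −4OHT, below that minimum. Its ratio of 0.281 had an interval of 0.0502 to 2.85, so that its direction was not settled. Fn1 was at 21.0 against 46.4, a ratio of 0.451 (0.419 to 0.487), and it was 0.703 (0.614 to 0.809) without the Amn/Cubn cluster. Its ratio was 0.666 (0.53 to 0.847) within the Tff1/Clu and 0.505 (0.422 to 0.607) within the Car4/Pitx1 cluster. Without the predicted doublets, which were nearly all in −4OHT, the Fn1 ratio over all endoderm-like cells was 0.985. Scrublet did not work in +4OHT, where it called 0.0161% of cells, against 3.43% in −4OHT. The ratio of 0.985 therefore compares cells filtered for doublets in −4OHT with cells hardly filtered in +4OHT. Snai2 had 6 UMIs in 5988 cells of +4OHT and 20 UMIs in 1392 cells of −4OHT, a ratio of 0.0852 (0.028 to 0.22), of which the Amn/Cubn cluster held 18 of the 20 UMIs.

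The adhesion genes were close to equal across all endoderm-like cells. Cdh1 had a ratio of 1.05 (0.996 to 1.10) and Epcam of 0.98 (0.953 to 1.01), both below the median of all genes. Within clusters Epcam was lower in +4OHT, at 0.716 (0.666 to 0.772) in the Tff1/Clu and 0.752 (0.715 to 0.790) in the Car4/Pitx1 cluster, while Cdh1 stayed at 1.04 (0.904 to 1.21) and 1.07 (0.969 to 1.19). Vim turned with the cells compared. Its ratio was 1.18 (1.14 to 1.23) over all endoderm-like cells, 0.963 after thinning to 5000 UMIs, 0.472 (0.433 to 0.514) within the Tff1/Clu and 0.753 (0.71 to 0.8) within the Car4/Pitx1 cluster. Zeb1 was 0.552 (0.451 to 0.678) over all cells and 0.999 (0.672 to 1.54) without the Amn/Cubn cluster. Cdh2 was 1.67 (1.29 to 2.19) over all cells, 1.23 after thinning and 2.20 (1.36 to 3.81) without the Amn/Cubn cluster. Within the Car4/Pitx1 cluster it was 2.40 (1.06 to 6.72), where −4OHT held 6 UMIs. Within the Tff1/Clu cluster, with 304 of the 399 +4OHT UMIs, the Cdh2 ratio was 1.16 (0.639 to 2.35).

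**Figure D4:**
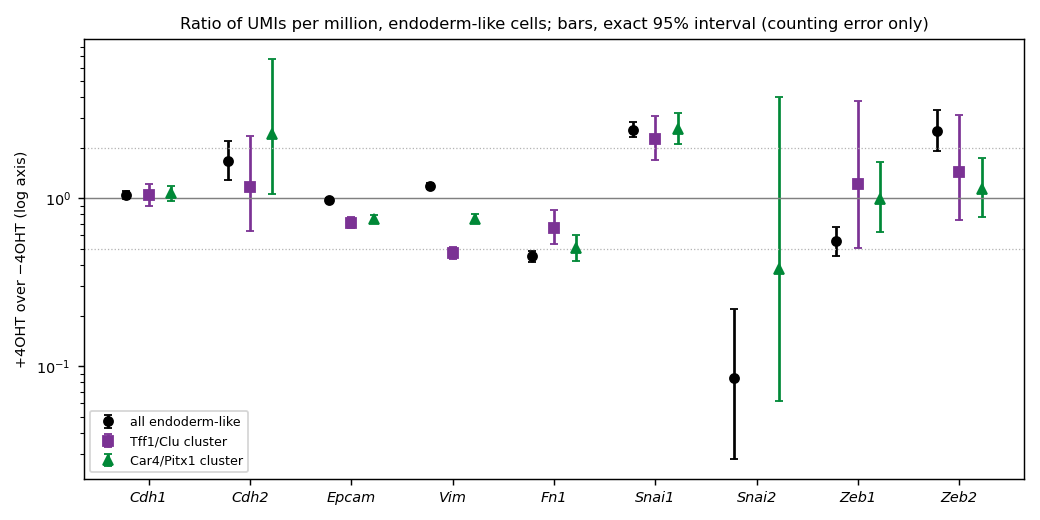
Ratio of UMI CPM in +4OHT over −4OHT (log axis) for each member in all endoderm-like cells and in the 2 clusters present in both libraries, with exact 95% intervals for counting error and dotted lines at 2-fold. Snai1 lies above 2 in all 3, Vim lies above 1 over all cells but below 1 within each cluster, and Snai2 is not drawn for the Tff1/Clu cluster, where −4OHT held no UMI.

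Cdh1 and Cdh2 were seen in the same endoderm-like cells. After thinning to 5000 UMIs, Cdh1 had a UMI in 32.5% (30 to 35) of 1389 cells in −4OHT and 30.8% (29.7 to 32.0) of 5952 cells in +4OHT. Cdh2 had one in 1.51% (0.938 to 2.30) and 1.85% (1.52 to 2.22), and both in 0.72% and 0.924%. Of the 110 +4OHT cells with a Cdh2 UMI, 50.0% (40.3 to 59.7) also had a Cdh1 UMI, against 30.5% (29.3 to 31.7) of cells without Cdh2. In −4OHT the shares were 47.6% (25.7 to 70.2) of 21 cells and 32.2% (29.8 to 34.8). Col1a1, a fibroblast gene, had a UMI in 0.37% of thinned endoderm-like cells of +4OHT, below the share of Cdh2. Cells with Cdh2 and without Cdh1 at this depth cannot be told from cells whose Cdh1 was missed.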

How the data were processed

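Bulk RNA-seq and droplet single-cell RNA-seq of sorted mouse nEnd cells were analysed. As deposited, the bulk table held unnormalized counts of reads for 9 libraries, and the matrices held UMI counts for 2 single-cell libraries, made with Cell Ranger 6.1.2 per the file headers and mm10 per the labels. For bulk, the sources used here give neither counter nor annotation nor strand setting, so overlapping genes may share reads. The 35 blank lines of the bulk table were dropped.

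Bulk counts were filtered with filterByExpr, scaled by TMM and tested with edgeR 4.0.16 (quasi-likelihood test, 1 fit over 9 libraries, 3 per group) in R 4.3.3. P-values were adjusted by Benjamini-Hochberg over 14185 genes and called below 0.05. DESeq2 1.42.0, other filters and scalings, a replicate block and each library left out were alternatives. Deviations of DP and Pdgfra+ libraries with the same number correlated (r = 0.271, 0.477 and 0.321), so the numbers pair these 2 groups. Exon lengths came from GENCODE. Replicates differed by more than sampling noise (chi-square per degree of freedom 18.3 to 40.3).

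Single cells with at least 2000 genes and at most 10% mitochondrial UMIs were clustered with scanpy 1.11.5 (2000 variable genes, 20 components, 20 neighbours, Leiden resolution 0.4). No doublets were removed in the reported values. Scrublet called 3.43% of cells in −4OHT and 0.0161% in +4OHT, where it did not work. Intervals are exact Poisson, binomial or conditional binomial at 95%. Genes with at least 30 UMIs over both sides entered the shares of all genes. The scripts were tested on simulated data.

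The members, the gene lists and the marker lists were chosen with earlier results of these data known. Of the other listed genes, up to 3 per direction were named, with the largest called differences among genes of at least 10 CPM in the higher group whose libraries did not overlap. The Snai1 window was shown where none was at hand for Cdh1.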

Additional observations from a re-analysis of the deposited data

How the results depend on the processing

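In Oct4+ against Pdgfra+ and DP against Oct4+ the number of members called stayed within 5 to 7 and 6 to 8 when each library was left out. In DP against Pdgfra+ it was 1, and became 2 without a filter on low counts, 0 in the fit of 6 libraries, 0 with the replicate block over 9 libraries and 0 to 0 with each library left out. It was also 1 with the replicate block over 6 libraries and with DESeq2, but the member called there was Vim, and Snai2 had no adjusted p. In the fit of 6 libraries Snai2 and Zeb2 were not tested, so that 0 there is not a lost call of Snai2. Of the other epithelial and mesenchymal genes, 2 were called there, against 1 with RLE size factors, 16 without a filter, 7 with 6 libraries, 10 with DESeq2, 6 and 24 with the replicate block over 9 and 6 libraries, and 0 to 6 with each library left out. Over all genes 975 were called there, against 1892 without a filter, 2536 with the replicate block over 6 libraries, 1872 with DESeq2 and 61 to 1382 with each library left out.

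Near-zero differences between DP and Pdgfra+ changed sign. For Fn1 the log2 difference was 0.0834 and 0.142 with the replicate block over 9 and 6 libraries and −0.371 to 0.679 with each library left out. For Cdh2 it was 0.00871 with the block over 6 libraries and −0.544 to 0.778 with each library left out. The numbers do not pair Oct4+ libraries with the others. With the block over 6 libraries, adjusted p-values there were 0.0593 (Zeb2, Oct4+ against Pdgfra+), 0.0555 (Cdh1, DP against Oct4+) and 0.0634 (Snai2, DP against Oct4+). The Snai2 call in DP against Oct4+ also ended without DP replicate 1, DP replicate 3 or Oct4+ replicate 3. The causes were not tested.

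Of the single-cell ratios under the alternatives, 53 moved by less than their counting interval and 28 by more. The removal of predicted doublets, the split by shared clusters, the class ratios without them and the weight on Oct4+ replicate 1 were chosen after seeing the data. Snai2 and Zeb2 are limited by depth in bulk, and Snai2 in single cells.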

Other observations

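Cells were also divided by whether a repressor had a UMI, a comparison chosen after seeing the data. In endoderm-like cells of +4OHT thinned to 5000 UMIs, the 1157 cells with a Snai1 UMI held 0.319 Cdh1 UMIs per cell, against 0.467 in the 4795 cells without, a ratio of 0.682 (0.61 to 0.762). Epcam had a ratio of 0.858 (0.809 to 0.91), Vim of 0.764 (0.701 to 0.832), Fn1 of 0.556 (0.429 to 0.711) and Zeb1 of 1.11 (0.661 to 1.8). In −4OHT, with 118 cells against 1271, Cdh1 had a ratio of 1.17 (0.879 to 1.53), Epcam of 0.756 (0.628 to 0.902), Vim of 1.15 (0.921 to 1.42), Fn1 of 0.784 (0.431 to 1.32) and Zeb1 of 3.19 (1.25 to 7.22). Cells of 1 library are not replicates, and the intervals cover counting error only.

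In epiblast-like cells, the 395 cells with a Zeb1 UMI held Fn1 at a ratio of 1.13 (1.03 to 1.23) to the 3293 cells without, and Cdh1 at 1.15 (0.943 to 1.39). Between the epiblast-like clusters, Cdh1 was at 81.1 UMI CPM (77.8 to 84.6) in the one led by Calcoco2 and 43.6 (41.7 to 45.5) in the one led by Cdx1. Epcam was at 165.5 (161 to 170) and 64.9 (62.6 to 67.2), while Zeb1 was at 22.3 (20.6 to 24.1) and 24.7 (23.3 to 26.2).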
